A study of Homo sapiens with 48 samples.

Results

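The 8 genes described here encode secreted semaphorins (SEMA3A, SEMA3C, SEMA3F), the plexins PLXNA1, PLXNB2 and PLXND1, and the neuropilins NRP1 and NRP2. They were chosen by name from 19842 named genes in the count table, of which 9991, all 8 included, had at least 10000 counts in total and were tested. PLXND1 and SEMA3F were picked because exons of theirs were skipped after knockdown of splicing factors, so every value of these 2 genes in the knockdown comparisons is a description and was not tested. The cells were IMR90, an established human lung fibroblast line, and every library, controls included, came from cells carrying ER:RAS G12V, an oncogenic RAS fused to an oestrogen receptor domain and switched on by 4-hydroxytamoxifen (4OHT). Cells received 4OHT or its vehicle DMSO for 6 days, were transfected with siRNA, and stayed 2 more days in medium with 0.5% FBS. The 48 RNA-seq libraries form 6 groups of 8: DMSO siNT, 4OHT siNT, DMSO siSF3B1, 4OHT siSF3B1, DMSO siRBM39 and 4OHT siRBM39. Each group joined 2 siRNAs with 4 libraries each: the non-targeting siNT1 and siNT2, siSF3B1-13 and siSF3B1-16 against the U2 snRNP subunit SF3B1, or siRBM39-06 and siRBM39-08 against the splicing factor RBM39. For 4 of the 4OHT siNT libraries the labels named both siNT1 and siNT2, and these were taken as siNT2.

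Semaphorins are guidance cues that cells read through plexins. Class 3 semaphorins are secreted and usually bind a neuropilin that is held in a complex with a class A plexin, while PLXND1 is best known as the endothelial receptor for SEMA3E and PLXNB2 answers to class 4 semaphorins on neighbouring cells. Bound plexins act through a GTPase-activating domain inside the cell on small R-Ras and Rap GTPases and thereby on the cytoskeleton and adhesion, and fibroblasts both secrete class 3 semaphorins and carry the receptors. SF3B1 recognises the branch site of introns within the U2 snRNP, and RBM39 helps to recruit U2 factors to weak 3′ splice sites.

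Splicing was read as PSI, the percentage of transcripts that include an exon or retain an intron. The 6 sequences below are shown because the splicing results on PLXND1, SEMA3F, NRP1 and PLXNB2 turn on them. The first 3 belong to the genes picked for exon skipping: PLXND1 exon 32 of 36 (window chr3:129278453-129278656, minus strand), SEMA3F exon 9 of 19 (chr3:50220047-50220226, plus strand) and SEMA3F exon 10 (chr3:50220307-50220461, plus strand). The other 3 belong to genes chosen by name: NRP1 exon 16 of 17 (chr10:33471616-33471706, minus strand), PLXNB2 exon 8 of 37 (chr22:50725530-50725723, minus strand) and PLXNB2 intron 21 of 36 (chr22:50719919-50720024, minus strand). Coordinates are GRCh37 and numbering follows the MANE transcript. Each sequence is written 5′ to 3′ on the strand of the gene, with the exon or the retained intron in capitals and 30 bases before and 10 bases after it in lower case.
PLXND1 exon 32: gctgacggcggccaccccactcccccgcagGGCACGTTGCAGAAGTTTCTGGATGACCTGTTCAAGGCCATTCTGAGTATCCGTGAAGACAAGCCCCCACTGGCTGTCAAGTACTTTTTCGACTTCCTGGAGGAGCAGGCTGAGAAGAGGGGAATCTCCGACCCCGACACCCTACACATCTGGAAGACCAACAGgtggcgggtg
SEMA3F exon 9: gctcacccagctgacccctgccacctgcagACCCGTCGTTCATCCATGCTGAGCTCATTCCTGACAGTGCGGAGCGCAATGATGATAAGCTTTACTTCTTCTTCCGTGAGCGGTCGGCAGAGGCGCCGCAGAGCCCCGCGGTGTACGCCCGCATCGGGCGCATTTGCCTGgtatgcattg
SEMA3F exon 10: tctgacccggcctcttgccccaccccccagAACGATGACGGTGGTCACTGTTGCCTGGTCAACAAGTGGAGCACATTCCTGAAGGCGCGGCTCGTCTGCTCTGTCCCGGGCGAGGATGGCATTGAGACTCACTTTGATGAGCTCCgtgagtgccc
NRP1 exon 16: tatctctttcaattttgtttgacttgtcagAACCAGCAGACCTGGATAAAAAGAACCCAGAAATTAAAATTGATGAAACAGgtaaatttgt
PLXNB2 exon 8: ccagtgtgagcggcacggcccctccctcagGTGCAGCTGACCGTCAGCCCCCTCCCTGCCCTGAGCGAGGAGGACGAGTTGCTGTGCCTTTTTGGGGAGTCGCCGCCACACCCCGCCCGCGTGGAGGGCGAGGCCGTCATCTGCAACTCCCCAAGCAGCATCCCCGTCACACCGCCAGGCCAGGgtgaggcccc
PLXNB2 intron 21: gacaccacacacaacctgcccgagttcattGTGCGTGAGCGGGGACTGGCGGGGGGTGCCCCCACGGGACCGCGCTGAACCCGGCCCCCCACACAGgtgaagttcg
In the 20 intronic bases before the capitals, pyrimidines made up 70% for PLXND1 exon 32, 65% for SEMA3F exon 9, 80% for SEMA3F exon 10, 60% for NRP1 exon 16 and 65% for PLXNB2 exon 8. The medians over all internal exons of the same genes were 65% or 70%. By this count 12 of 34 internal exons of the gene were lower than PLXND1 exon 32, and 13 of 35 lower than PLXNB2 exon 8. For SEMA3F 3 of 17 were lower than exon 9 and 14 of 17 lower than exon 10, and for NRP1 2 of 15 were lower than exon 16. The part of this count in the skipping was not tested.

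Libraries held 31467221 to 52734636 gene counts. In counts scaled to library size (CPM), SF3B1 itself went from between 311 and 396 down to between 30.4 and 35.2 after siSF3B1 in DMSO cells, and from between 315 and 340 down to between 25.3 and 30.7 in 4OHT cells. RBM39 went from between 158 and 185 CPM down to between 24.2 and 31 CPM after siRBM39 in DMSO cells, and from between 115 and 127 CPM down to between 13.7 and 18.4 CPM in 4OHT cells. All 11 fibroblast markers were listed and summed to 12534 to 13691 cRPKM (reads scaled to gene length and library size, corrected for mappability) in DMSO siNT and 5093 to 5252 cRPKM in 4OHT siNT. Endothelial markers (6 of 7 listed) summed to 4.25 to 12.3 cRPKM, epithelial markers to 0.99 to 14.9, neural markers to 0.44 to 0.87 and immune markers to 21.7 to 66.7, the last almost wholly the lysosomal gene CD68. The part of these markers in the results was not tested. Replicate 4 of siRBM39-08 in 4OHT stood apart from its group, with the epithelial sum of 14.9 cRPKM against 1.12 to 2.48 in the other 7 libraries. Values that rest on this library are given with and without it. In 4OHT siRBM39 the mean was 2.63 cRPKM for KRT5, 0.54 for EPCAM and 0.06 or less for every other epithelial marker. The labels do not state that libraries of a group were separate cultures, so p-values measure the spread between these libraries, which may be technical, and in these bulk samples fewer cells with a transcript and less of it per cell cannot be told apart. The knockdown and RAS comparisons share their siNT libraries.

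All 8 genes were expressed in every group. On the per-length cRPKM scale the levels in DMSO siNT were led by PLXNB2 at 117 ± 5.75 (SD, n = 8) and NRP1 at 75.9 ± 1.88, followed by SEMA3A at 37.1 ± 2.91. PLXND1 (28.2 ± 1.5), SEMA3C (26.6 ± 1.54) and PLXNA1 (25.2 ± 1.64) followed closely, and each overlapped the next in its range over libraries. SEMA3F (19.7 ± 1.02) and NRP2 (13.3 ± 0.571) came last, without overlap with their neighbours. In 4OHT siNT, SEMA3C had moved up to 39.7 ± 2.13 cRPKM, level in range with SEMA3A at 37.3 ± 1.08, and SEMA3F and NRP2 now overlapped at 16.9 ± 0.705 and 15.7 ± 0.509. In 4OHT siSF3B1, SEMA3C at 60.4 ± 0.981 cRPKM overlapped NRP1 at 58.8 ± 0.686, and PLXND1 was the lowest of the 8 at 10.4 ± 0.791.

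**Figure D1:**
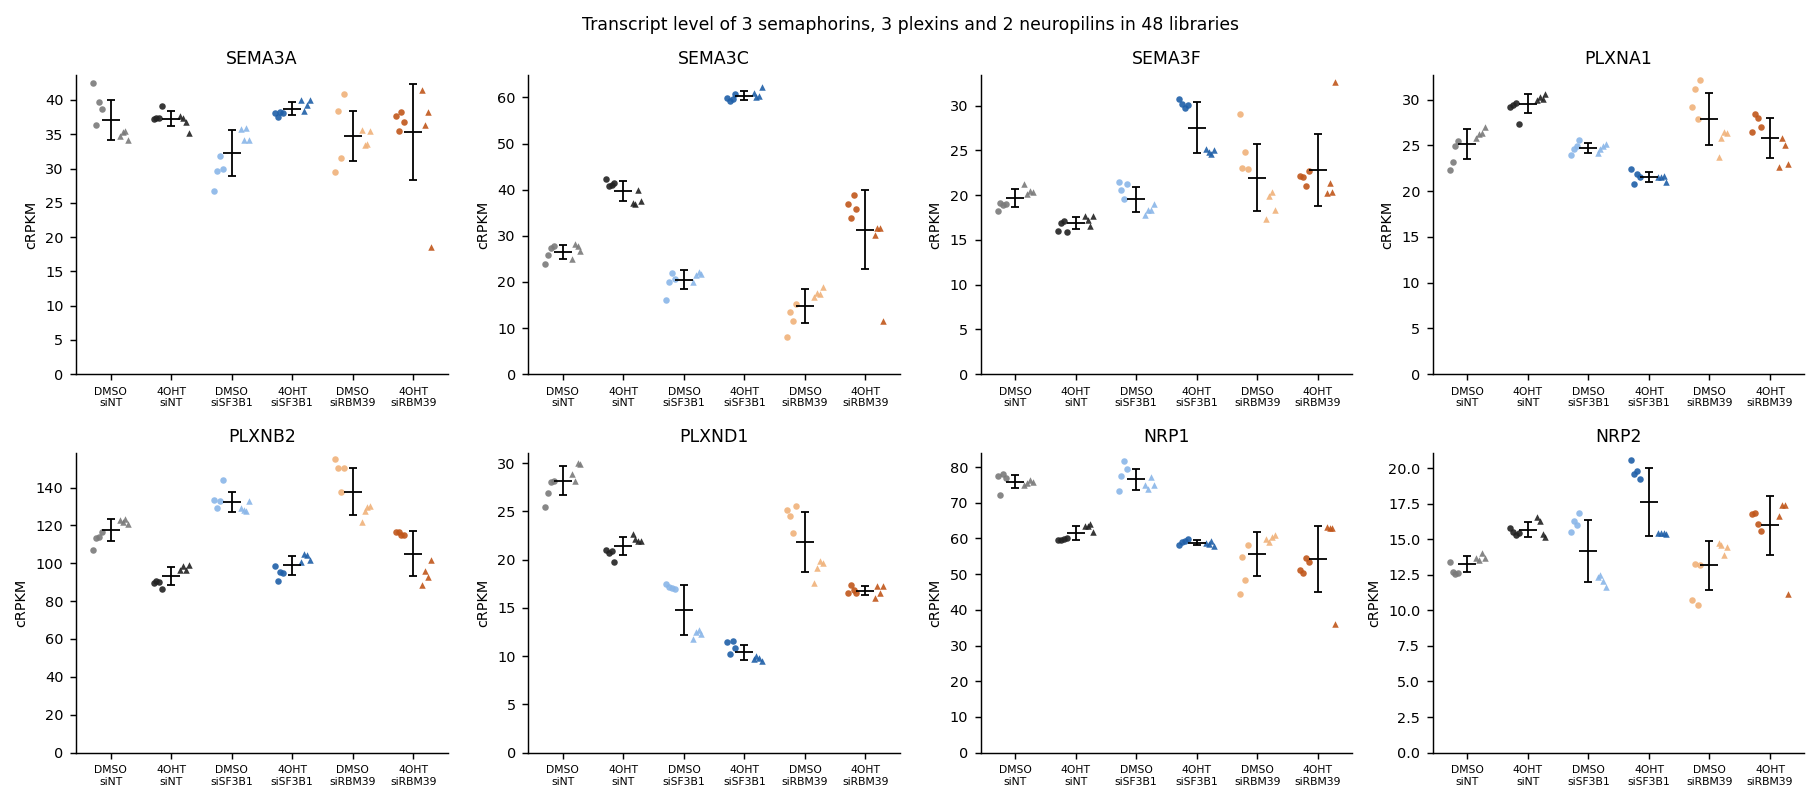
Level of each of the 8 genes in cRPKM (linear axis from 0, 1 panel a gene) in the 48 libraries by group, with circles for the first and triangles for the second siRNA of each pair and bars for mean ± SD (n = 8). PLXNB2 is the highest in every group, SEMA3C climbs to a mean of 60.4 in 4OHT siSF3B1, and PLXND1 drops to 10.4 there.

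Activation of RAS, read as 4OHT siNT against DMSO siNT, moved 7 of the 8 genes, 3 up and 4 down, in a comparison in which 78.1% of all tested genes passed the threshold (edgeR quasi-likelihood test, adjusted p under 0.05). The differences were small: the median absolute log2 fold change of the 8 was 0.27 against 0.42 over all genes tested, and none reached 2-fold. Among the ligands, SEMA3C, a secreted cue for migrating neural crest and endothelial cells, rose from 122, 137 and 143 CPM (lowest, median, highest) to 189, 205 and 217 CPM. The 2 groups did not overlap, a 1.5-fold difference (log2 fold change 0.58 ± 0.13 SE, adjusted p = 5.23e-05). SEMA3A, the classical growth cone collapsing factor, stayed at 188, 199 and 239 CPM against 195, 208 and 219 CPM, with overlapping groups (0.01 ± 0.08, adjusted p = 0.894). SEMA3F, a ligand of NRP2, fell from 68.4, 72.7 and 79.0 CPM to 59.2, 63.4 and 66.2 CPM without overlap (−0.21 ± 0.09, adjusted p = 0.0211). This call was lost when replicate 1, 2 or 3 was left out of every group (adjusted p = 0.0719, 0.0706 and 0.0727), with either control siRNA alone (0.245 and 0.0880) and under looser filters on low counts (0.129 and 0.0621).

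The receptors split by gene. PLXND1 went from 180, 195 and 209 CPM down to 139, 150 and 159 CPM (−0.39 ± 0.08, adjusted p = 1.28e-05), and PLXNB2 from 679, 739 and 772 CPM to 546, 586 and 619 CPM (−0.32 ± 0.05, adjusted p = 1.62e-07). PLXNA1, the class A plexin that pairs with neuropilins, rose instead from 199, 225 and 237 CPM to 243, 264 and 269 CPM (0.24 ± 0.04, adjusted p = 3.61e-06). In none of these did the groups overlap. The coreceptors moved in opposite directions, also without overlap. NRP1, which binds SEMA3A and VEGF, fell from 404, 425 and 440 CPM to 335, 343 and 360 CPM (−0.30 ± 0.06, adjusted p = 4.09e-05). NRP2 rose from 81.7, 88.8 and 91.4 CPM to 98.9, 102 and 109 CPM (0.25 ± 0.09, adjusted p = 0.00940), a call lost with siNT1 alone (adjusted p = 0.0542) or siNT2 alone (0.174).

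**Figure D2:**
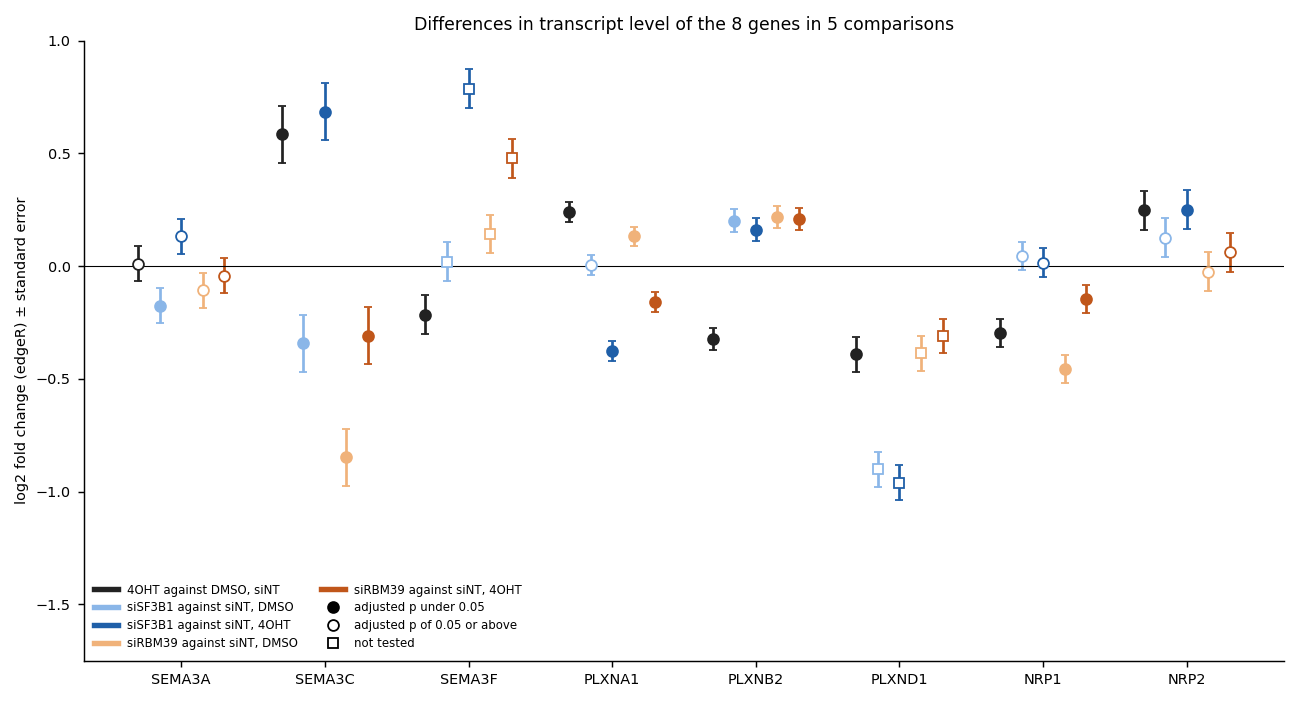
Difference in transcript level (log2 fold change ± SE from edgeR, vertical axis) for the 8 genes in 5 comparisons by colour, with filled circles for an adjusted p under 0.05, open circles for values that missed it and squares for values not tested. SEMA3C after siSF3B1 lies at −0.34 in DMSO and 0.69 in 4OHT, and PLXND1 lies below 0 in all 5 comparisons.

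SF3B1 depletion moved the ligand SEMA3C in opposite directions without and with RAS. In DMSO cells SEMA3C fell from 122, 137 and 143 CPM to 85.2, 109 and 115 CPM, without overlap (−0.34 ± 0.13, adjusted p = 0.0140). In 4OHT cells it rose from 189, 205 and 217 CPM to 317, 325 and 331 CPM, also without overlap (0.69 ± 0.13, adjusted p = 4.37e-06). The difference between these effects was itself tested and came to 1.03 ± 0.18 on the log2 scale (adjusted p = 8.06e-06), the only interaction of at least 2-fold among the 6 genes. The DMSO fall alone was not past the threshold without replicate 2 of every group (−0.34, adjusted p = 0.0683) or with either siRNA against SF3B1 alone (0.0587 and 0.0868).

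In DMSO cells siSF3B1 moved 3 of the 6 genes chosen by name (1 up and 2 down, against 72.7% called over all genes), and in 4OHT cells 4 of 6 (3 up and 1 down, against 77.0%). Their median absolute log2 fold changes, 0.15 and 0.21, were below those of all genes, 0.34 and 0.39. SEMA3A held 155, 186 and 200 CPM in DMSO siSF3B1, overlapping siNT (−0.18 ± 0.08, adjusted p = 0.0404). In 4OHT siSF3B1 it held 222, 228 and 233 CPM, above all 8 siNT libraries, yet short of the threshold (0.13 ± 0.08, adjusted p = 0.113). Its effects differed between DMSO and 4OHT by 0.31 ± 0.11 (adjusted p = 0.0227). Neither call on SEMA3A held without replicate 1 (−0.15, adjusted p = 0.131 in DMSO, and 0.24, adjusted p = 0.137 for the interaction), replicate 2 (0.107 and 0.0884) or replicate 3 (0.0882 and 0.0914). The DMSO call was also lost with siSF3B1-16 alone or siNT2 alone. In DMSO SEMA3A held 155 to 183 CPM with siSF3B1-13 and 189 to 200 CPM with siSF3B1-16. The control libraries held 201 to 239 CPM with siNT1 and 188 to 196 CPM with siNT2.

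The plexins behaved differently from each other after siSF3B1. PLXNA1 stayed at 214, 220 and 233 CPM in DMSO siSF3B1, within the range of siNT (0.01 ± 0.04, adjusted p = 0.915). In 4OHT siSF3B1 it fell to 194, 199 and 213 CPM, below every siNT library (−0.38 ± 0.04, adjusted p = 1.60e-10), and the effects differed by −0.38 ± 0.06 (adjusted p = 2.51e-06). In siSF3B1 cells the 4OHT libraries of PLXNA1 thus lay below the DMSO libraries, the reverse of the order in siNT cells. PLXNB2 rose in both: to 798, 836 and 932 CPM in DMSO (0.20 ± 0.05, adjusted p = 0.000429, no overlap) and to 610, 663 and 683 CPM in 4OHT, where 7 of 8 libraries lay above all siNT libraries (0.16 ± 0.05, adjusted p = 0.00379). The DMSO rise of PLXNB2 was not called with siNT2 alone or with siSF3B1-16 alone. In DMSO the siNT1 libraries held 679 to 726 CPM of PLXNB2 and the siNT2 libraries 752 to 772 CPM. The 4OHT rise of PLXNB2 was not called without replicate 1 (0.12, adjusted p = 0.0535) or with siSF3B1-13 alone (0.10, adjusted p = 0.160). The effects on PLXNB2 in DMSO and 4OHT did not differ detectably (−0.04 ± 0.07, adjusted p = 0.700).

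Neither neuropilin changed by much in level. NRP1 held 416, 432 and 477 CPM in DMSO siSF3B1 (0.04 ± 0.06, adjusted p = 0.534) and 341, 350 and 361 CPM in 4OHT siSF3B1 (0.02 ± 0.06, adjusted p = 0.825), overlapping siNT in both. NRP2 held 76.1, 93.8 and 114 CPM in DMSO (0.13 ± 0.09, adjusted p = 0.186) and rose to 105, 121 and 145 CPM in 4OHT (0.25 ± 0.09, adjusted p = 0.00899). The siRNAs differed for NRP2, whose mean was 110 CPM with siSF3B1-13 and 79.6 CPM with siSF3B1-16 in DMSO, and 140 and 106 CPM in 4OHT. With siSF3B1-16 alone the values were −0.14 (adjusted p = 0.115) in DMSO and 0.00 (adjusted p = 0.959) in 4OHT, and the 4OHT call was also lost without replicate 1 (0.22, adjusted p = 0.0501).

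RBM39 depletion lowered the ligand SEMA3C and the coreceptor NRP1 most in DMSO cells. SEMA3C fell to 40, 80.6 and 95.9 CPM (0.556-fold, −0.85 ± 0.13, adjusted p = 3.08e-07) and NRP1 to 246, 326 and 341 CPM (−0.46 ± 0.06, adjusted p = 5.32e-08), both below every siNT library. The siRNAs differed in size: with siRBM39-08 alone SEMA3C came to −0.58 (adjusted p = 0.000167) and NRP1 to −0.33 (adjusted p = 0.000239), and with siRBM39-06 alone to −1.17 and −0.59. The lowest libraries were replicates 1 and 3 of siRBM39-06, with SEMA3C at 40 and 56.6 CPM and NRP1 at 246 and 264 CPM. Their epithelial marker sums were 5.25 and 3.27 cRPKM against 1.47 to 2.26 in the other 6 libraries, and both calls held when replicate 1 or 3 was left out of every group. PLXNB2 rose to 774, 827 and 955 CPM without overlap (0.22 ± 0.05, adjusted p = 0.000374). Its libraries held 840 to 955 CPM with siRBM39-06 but 774 to 814 CPM with siRBM39-08, against 752 to 772 CPM with siNT2. PLXNA1 at 211, 235 and 277 CPM also passed the threshold (0.13 ± 0.04, adjusted p = 0.0124), but not with siRBM39-08 alone (0.03, adjusted p = 0.590) or without replicate 2 (0.11, adjusted p = 0.102). SEMA3A at 161, 191 and 222 CPM (−0.11 ± 0.08, adjusted p = 0.264; −0.17, adjusted p = 0.0186 without replicate 4) and NRP2 at 66.3, 87.6 and 98.0 CPM (−0.02 ± 0.09, adjusted p = 0.846) overlapped siNT. In all, 4 of the 6 genes were called, against 46.1% of all genes, and their median absolute log2 fold change was 0.18 against 0.17.

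In 4OHT cells SEMA3C and NRP1 differed less after siRBM39, and several values rested on replicate 4 of siRBM39-08. Called were 4 of the 6 genes, 1 up and 3 down, against 56.4% of all genes. Without that library 2 of them were called, and the 56.4% does not refer to that fit. SEMA3C held 64.8, 171 and 200 CPM (−0.31 ± 0.13, adjusted p = 0.0343), and 159 to 200 CPM once the library at 64.8 was left out (−0.19, adjusted p = 0.0747). NRP1 held 222, 306 and 368 CPM (−0.14 ± 0.06, adjusted p = 0.0466; −0.09, adjusted p = 0.154 without it). Both calls were also lost when replicate 2 (adjusted p = 0.0906 for SEMA3C and 0.0930 for NRP1), 3 (0.0622 and 0.0571) or 4 (0.132 and 0.349) was left out of every group. PLXNA1 at 206, 235 and 260 CPM was lower (−0.16 ± 0.04, adjusted p = 0.00200) and PLXNB2 at 573, 712 and 755 CPM higher (0.21 ± 0.05, adjusted p = 0.000460), each with groups that overlapped. Without the library these came to −0.15 (adjusted p = 0.00365) and 0.20 (adjusted p = 0.000675). The PLXNB2 value came to 0.05 (adjusted p = 0.361) with siRBM39-08 alone, and the PLXNA1 value to −0.08 (adjusted p = 0.0950) with siRBM39-06 alone. SEMA3A at 113, 210 and 238 CPM (−0.04 ± 0.08, adjusted p = 0.656; 0.04, adjusted p = 0.474 without the library) and NRP2 at 80.0, 113 and 116 CPM (0.06 ± 0.09, adjusted p = 0.564; 0.11, adjusted p = 0.241 without it) overlapped siNT.

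The effect of siRBM39 differed between 4OHT and DMSO for 3 of the 6 genes, in a test that called 14.1% of all genes. SEMA3C and NRP1 fell less in 4OHT, by 0.54 ± 0.18 (adjusted p = 0.0332) and 0.31 ± 0.09 (adjusted p = 0.0124), and PLXNA1 turned from higher to lower (−0.29 ± 0.06, adjusted p = 0.000718). Without replicate 4 of siRBM39-08 in 4OHT these came to 0.66 (adjusted p = 0.000144), 0.37 (0.000146) and −0.28, and all 3 were called. With siRBM39-08 alone the SEMA3C value was 0.01 (adjusted p = 0.958), and the calls on SEMA3C and NRP1 were lost without replicate 1 (0.150 and 0.136), replicate 2 (0.208 and 0.0897) or replicate 3 (0.258 and 0.163). The matching test for siSF3B1 called SEMA3A, SEMA3C and PLXNA1 of the 6, against 37.8% of all genes.

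PLXND1, picked for its exon, had lower transcript levels in each of the 4 knockdown groups, given here without a test. It held 82.6, 105 and 127 CPM in DMSO siSF3B1 and 69.3, 74.7 and 86.9 CPM in 4OHT siSF3B1, 0.536-fold and 0.514-fold of siNT. After siRBM39 it held 124, 146 and 174 CPM in DMSO and 115, 119 and 132 CPM in 4OHT, 0.765-fold and 0.807-fold of siNT. None of the 4 groups overlapped its siNT group. The siRNAs differed in size, with means of 124 CPM for siSF3B1-13 and 86.0 CPM for siSF3B1-16 in DMSO (log2 fold change −0.65 and −1.20), and of 167 CPM for siRBM39-06 and 133 CPM for siRBM39-08. SEMA3F, the other picked gene, held 66.4, 73.0 and 82.9 CPM in DMSO siSF3B1 and 65.5, 79.0 and 106 CPM in DMSO siRBM39, overlapping siNT. Its log2 fold change in DMSO siRBM39 was 0.14, and −0.05 with siRBM39-08 alone. In 4OHT it held 95.1, 109 and 123 CPM after siSF3B1 (1.73-fold) and 77.2, 82.5 and 133 CPM after siRBM39 (1.39-fold), above all siNT libraries. Without replicate 4 of siRBM39-08, which held the 133 CPM, the log2 fold change of the latter was 0.37 in place of 0.48.

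The exon that marked PLXND1, the 164 nt exon 32 (HsaEX0048613, GRCh37 chr3:129278463-129278626, coding), was included at 75.2, 82.0 and 87.8% in DMSO siNT and at 75.3, 87.7 and 95.2% in 4OHT siNT, with 88 to 200 reads a library. RAS did not change it detectably (4.31 points, limma adjusted p = 0.612). After siSF3B1 inclusion was 32.8, 46.9 and 59.9% in DMSO and 38.4, 43.1 and 57.9% in 4OHT, below every siNT library, by 35.1 and 42.2 points. After siRBM39 it was 44.5, 59.9 and 79.5% in DMSO and 57.6, 65.2 and 75.3% in 4OHT, 21.4 and 20.4 points lower, with 7 of 8 libraries in each below all of siNT. In DMSO the siRBM39-06 mean lay 12.6 points below siNT and the siRBM39-08 mean 30.2 points. Skipping exon 32 shifts the reading frame and would end it after 1728 of 1925 codons, with the stop 310 nt before the last exon junction.

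The intron of PLXND1 with the largest differences, the 1204 nt intron 33 of 35 (HsaINT0128193), was retained at means of 2.49% in DMSO siNT and 0.79% in 4OHT siNT against 12.4% and 14.2% after siSF3B1, without overlap. After siRBM39 it was at 2.90% in DMSO and 3.54% in 4OHT, overlapping siNT. Of the 13 covered PLXND1 exons, 3 lost at least 5 points in each siSF3B1 comparison and 1, exon 32, in each siRBM39 comparison. Another PLXND1 exon gained 6.56 points in DMSO siSF3B1. As background, the share of all 24757 covered exons that lost at least 5 points was 8.18% and 9.21% after siSF3B1 (DMSO and 4OHT) and 2.58% and 2.95% after siRBM39.

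SEMA3F lost inclusion of a pair of neighbouring exons after siRBM39 and of another exon after siSF3B1, again as a description. Its 140 nt exon 9 (HsaEX0057077, chr3:50220077-50220216, coding) was included at 95, 96.7 and 100% in DMSO siNT and 92.9, 95.6 and 100% in 4OHT siNT, on 28 to 64 reads. After siRBM39 it fell to 64.0, 83.2 and 94.4% in DMSO and 63.9, 68.5 and 75.4% in 4OHT, by 16.5 and 27 points and below all siNT libraries. After siSF3B1 it was at 100% in all 8 DMSO libraries (0 of 402 skipping reads, which allows up to 0.746%) and at 81.6, 92.7 and 100% in 4OHT. RAS did not change it detectably (−1.49 points, limma adjusted p = 1.00). The next exon, the 115 nt exon 10 (HsaEX0057078, chr3:50220337-50220451), named after its values were seen, went from means of 99.4% and 98.3% in siNT to 91.3% and 85.2% after siRBM39, also without overlap, and was at 100% in all DMSO siSF3B1 libraries (0 of 916 reads, up to 0.328%). Skipping exon 9 alone would end the frame after 256 of 785 codons and skipping exon 10 alone after 311. Skipping both would remove 255 nt, or 85 codons, and keep the frame. The table gives both exons the same outer neighbours, exons 8 and 11, and a read that joins these lacks both exons. The losses of exons 9 and 10 may thus rest on the same reads. Skipping of 1 exon alone was not counted apart from skipping of both, and the share of each form was not tested. Of the 11 covered SEMA3F exons, 2 lost at least 5 points in each siRBM39 comparison, exons 9 and 10, and 1 did so in each siSF3B1 comparison, the exon HsaEX0057076 (−8.10 points in DMSO and −7.71 points in 4OHT). The 234 nt intron 16 of SEMA3F (HsaINT0147291) was retained at 0.32% in DMSO siNT against 6.70% in DMSO siSF3B1, without overlap, and at 0.39% against 3.33% in 4OHT.

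**Figure D3:**
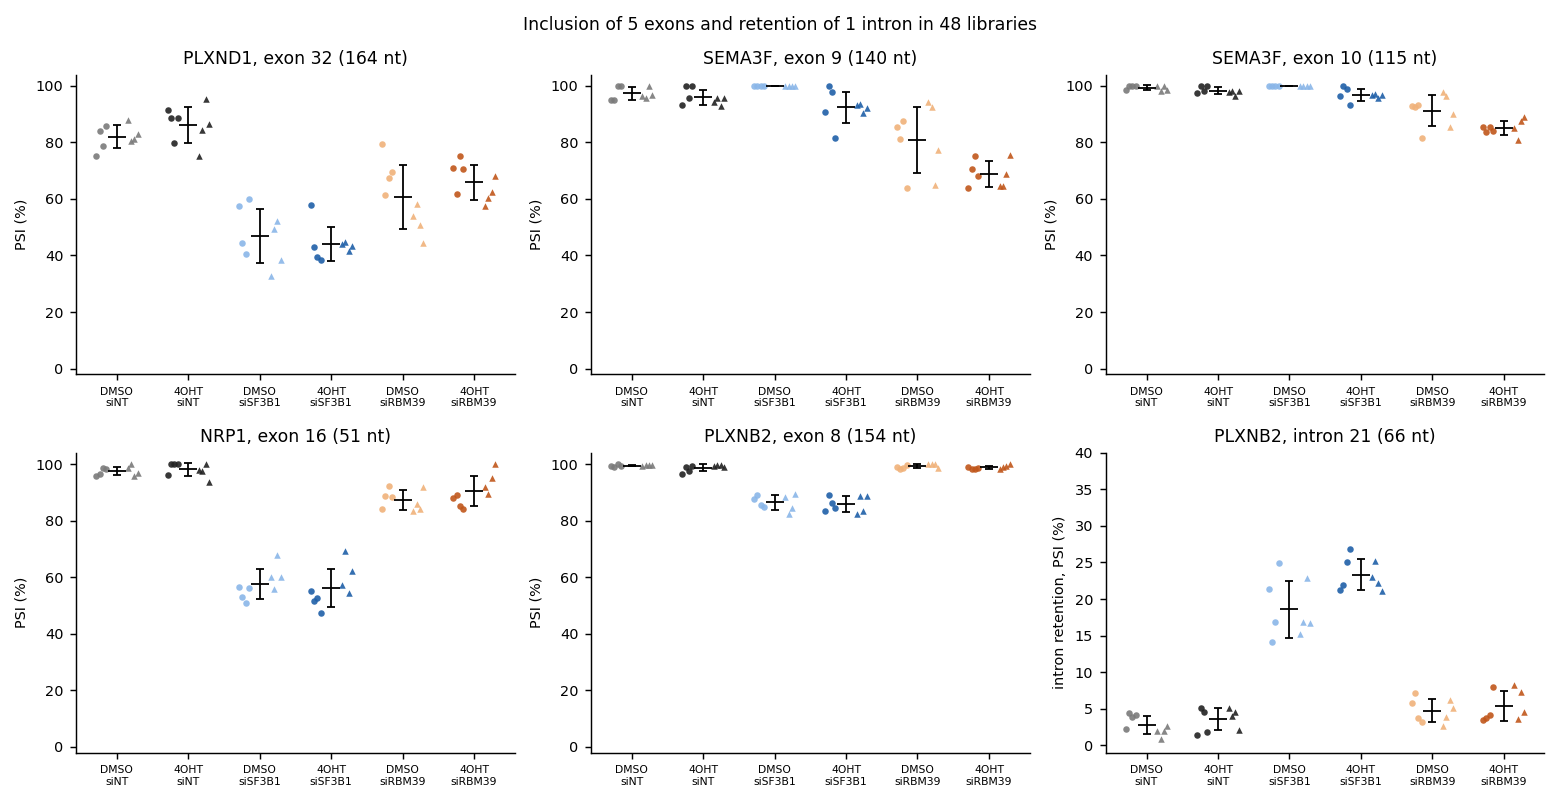
PSI in percent (linear axis from 0, shorter in the intron panel) of 5 exons and 1 intron of PLXND1, SEMA3F, NRP1 and PLXNB2 in the 48 libraries by group, with circles and triangles for the siRNAs of a pair and bars for mean ± SD (n = 8). PLXND1 exon 32 drops after both knockdowns, SEMA3F exons 9 and 10 after siRBM39, and NRP1 exon 16 to means of 57.6 and 56.3% after siSF3B1.

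Among the 6 genes chosen by name, which allow a test, the largest change lay in NRP1. The 51 nt exon 16 of 17 (HsaEX0043845, chr10:33471626-33471676, coding) was included at 95.7, 97.6 and 100% in DMSO siNT and 93.8, 98.9 and 100% in 4OHT siNT. It fell to 50.7, 56.5 and 68.0% in DMSO siSF3B1 (−40 points, limma adjusted p = 5.78e-13) and 47.5, 54.9 and 69.4% in 4OHT siSF3B1 (−41.9 points, adjusted p = 8.77e-15), without overlap, on 68 to 209 reads. After siRBM39 the fall was smaller, to 83.5, 87.2 and 92.4% in DMSO (−10.2 points, adjusted p = 6.31e-05, no overlap). In 4OHT siRBM39 inclusion was 84.0, 89.3 and 100% (−7.80 points, adjusted p = 0.000162), with 6 of 8 libraries below all siNT libraries. Replicate 4 of siRBM39-08 held the 100%, on 45 reads, and without it the difference was −9.18 points (adjusted p = 3.05e-07), while with siRBM39-08 alone the difference was −4.06 points (adjusted p = 0.108). Neither knockdown effect differed detectably between 4OHT and DMSO (−1.92 points, adjusted p = 0.726, and 2.35 points, adjusted p = 1.00). Skipping the exon keeps the reading frame and removes 17 of 923 codons, and NRP1 transcript levels after siSF3B1 lay within 0.04 of siNT on the log2 scale, as given above.

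Another NRP1 exon is listed with 84 nt (HsaEX0043846), and its exact ends occur in 1 of 14 transcripts and not in the MANE transcript. Forms of this exon with another end, such as a longer donor, were not looked for. Its inclusion was at siNT means of 97.8% (DMSO) and 98.7% (4OHT). In both siSF3B1 groups it was at 89.2% (−8.68 points, limma adjusted p = 6.88e-07, and −9.52 points, adjusted p = 2.54e-09), without overlap. After siRBM39 it was at 98.2% and 98.8% (0.36 points, adjusted p = 0.916, and 0.14 points, adjusted p = 1.00). A donor site that adds 21 nt to an NRP1 exon (HsaALTD0004394-2/2) was used at 77.0% in DMSO siNT, 86.8% in DMSO siSF3B1 (9.84 points, adjusted p = 0.00174, 7 of 8 libraries above siNT) and 85.2% in DMSO siRBM39 (8.17 points, adjusted p = 0.0216). The siSF3B1 call was lost with siSF3B1-16 alone (adjusted p = 0.220), and the siRBM39 call with siRBM39-08 alone (0.492), without replicate 1 (0.203) and without replicate 2 (0.0809). In 4OHT the site differed by 2.94 points after siSF3B1 (adjusted p = 0.580) and 1.36 points after siRBM39 (adjusted p = 0.884).

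In PLXNB2, the most abundant of the 8 transcripts, 1 exon was skipped and short introns were retained after siSF3B1. The 154 nt exon 8 (HsaEX0048584, chr22:50725540-50725693, coding) went from 99.2, 99.5 and 100% to 82.3, 86.6 and 89.4% in DMSO (−13 points, adjusted p = 1.43e-16) and from 96.4, 99.3 and 99.6% to 82.5, 85.4 and 89.0% in 4OHT (−12.9 points, adjusted p = 6.37e-15). Groups did not overlap, and 257 to 628 reads stood behind each value. After siRBM39 the exon stayed at means of 99.3% and 98.9% (−0.21 and 0.07 points, adjusted p = 1.00 for both). Skipping it shifts the frame, with a stop after 540 of 1838 codons.

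The 66 nt intron 21 of PLXNB2 (HsaINT0128077, chr22:50719929-50719994), of 78.8% GC, was retained at 0.88, 2.44 and 4.45% in DMSO siNT and 14.1, 16.8 and 24.9% in DMSO siSF3B1 (15.8 points, adjusted p = 2.33e-12). In 4OHT it went from 1.44, 4.27 and 5.10% to 21.1, 22.6 and 26.9% (19.7 points, adjusted p = 2.76e-13), again without overlap. Its length is a multiple of 3, but the retained sequence holds a stop that would end the frame after 1189 codons. The 143 nt intron 6 (HsaINT0128096) went from 0.09 to 7.60% in DMSO (7.51 points, adjusted p = 1.44e-13). In 4OHT it went from 0% (0 of 491 reads, up to 0.611%) to 10.5% (10.5 points, adjusted p = 2.67e-16), and neither comparison overlapped. The 88 nt intron 4 (HsaINT0128094) gained 5.78 points in 4OHT (adjusted p = 3.93e-08) and 3.57 points in DMSO (adjusted p = 8.91e-07), the latter under the 5 points that a call required. With siSF3B1-16 alone its 4OHT gain was 4.03 points. After siRBM39 the 3 introns differed by between −0.48 and 1.94 points, none of them called.

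Smaller events lay in PLXNA1 and SEMA3A. The 102 nt intron 12 of 31 of PLXNA1 (HsaINT0127900) was retained at 0.21% in DMSO siNT and 6.56% in DMSO siSF3B1 (6.36 points, adjusted p = 5.71e-09, no overlap). In 4OHT it gained 2.99 points (adjusted p = 3.12e-05), under the required size, as did DMSO with siSF3B1-13 alone (4.08 points). It holds no stop in frame, so that retention would lengthen the reading frame from 1896 to 1930 codons. The 1673 nt intron 20 (HsaINT0127908) gained 5.86 points in 4OHT siSF3B1 (adjusted p = 4.40e-07) and 4.40 points in DMSO. In SEMA3A, exon 5 of 94 nt (HsaEX0057049) fell by 7.31 points in DMSO siSF3B1 (adjusted p = 1.00e-08) and by 8.03 points in 4OHT (adjusted p = 3.54e-08), from means of 99.6% and 99.1%, without overlap. The 158 nt exon 14 (HsaEX0057046) fell by 7.30 points in 4OHT (adjusted p = 4.93e-05), with 7 of 8 libraries below siNT, and by 1.78 points in DMSO (adjusted p = 0.103). Intron 16 of SEMA3A (HsaINT0147208, 1378 nt) was the only event gained after siRBM39 alone, from 0.46 to 6.17% in DMSO (5.71 points, adjusted p = 0.000133). It rested on siRBM39-06, with a mean of 9.65% against 2.69% for siRBM39-08 (2.23 points, adjusted p = 0.0658, for the latter alone).

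The 8 genes had 409 exons, introns and alternative splice sites in the event table, of which 233 were covered in all 48 libraries and 54 also varied by at least 5 points and, for introns, had balanced reads at both junctions. RAS called 0 of these 54 by limma (3 had an unadjusted p under 0.05), against 1.60% of all tested exons, 0.0953% of introns and 0.327% of alternative sites. Of the 33 events in the 6 genes chosen by name, siSF3B1 called 8 in DMSO: 4 of 14 exons, all lower (26.8% of all tested exons), 3 of 15 introns, all higher (11.1%), and 1 of 4 alternative sites (10.3%). In 4OHT it called 9: 5 exons, all lower (30%), 4 introns, all higher (14.9%), and 0 alternative sites (10.6%). siRBM39 called 3 in DMSO, 1 exon (8.26%), 1 intron (2.06%) and 1 alternative site (6.32%), and in 4OHT 1 exon (9.34%), 0 introns (2.08%) and 0 alternative sites (5.12%). No event was called by limma as differing in its knockdown effect between 4OHT and DMSO, for siSF3B1 (0.613% of exons and 0.0191% of introns over all genes) or siRBM39 (0.0391% of exons and 0.109% of alternative sites), with 2 events each at an unadjusted p under 0.05. Events close to 0 or 100% in siNT varied enough to be tested only through the group in which they moved, so these counts do not stand for all covered events.

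Over all 82 covered exons of the 6 genes, 4 lost at least 5 points in DMSO siSF3B1 (4.88%) and 5 in 4OHT siSF3B1 (6.10%), below the shares over all genes given above, and 1 did so in each siRBM39 comparison (1.22%). No covered exon of the 6 genes gained 5 points in the 4 knockdown comparisons. Of 59 covered introns with balanced reads, 3 and 4 gained at least 5 points after siSF3B1 (5.08% and 6.78%, against 2.65% and 3.58% over all genes), and 1 and 0 after siRBM39 (1.69% and 0%, against 0.563% and 0.540%). SEMA3C and NRP2 had no covered exon or intron that moved by 5 points. For SEMA3C only 8 of 19 listed exons and 6 of 17 listed introns were covered. The part of splicing in its transcript level was not tested.

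Of 31 human semaphorin, plexin and neuropilin genes in a fixed list, 30 had a row and 22 were tested (14 of 20 ligands and 8 of 11 receptors). The 14 tested genes outside the 8 changed more with RAS: 12 were called (78.1% of all genes), 5 up and 7 down. Their median absolute log2 fold change was 0.85, against 0.27 for the 8 and 0.42 over all genes. Of the 14, 7 differed by at least 2-fold. The share of all genes at 2-fold was not counted, here or for the 8. SEMA7A, a membrane-anchored semaphorin that signals through integrins and PLXNC1, rose from between 17 and 21.1 CPM to between 317 and 363 CPM (18.3-fold, log2 fold change 4.19 ± 0.21). On the cRPKM scale its mean went from 5.75 to 105, above that of PLXNB2 in 4OHT siNT. SEMA6D rose by 1.94, while SEMA3D fell by 3.76, SEMA4G by 3.29 and SEMA4D by 3.02 on the log2 scale. In 4OHT siNT the means of SEMA3D, SEMA4G and SEMA4D were 0.23, 0.38 and 0.40 cRPKM, near the floor.

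After siSF3B1, 12 of these 14 were called in DMSO (4 up, 8 down, against 72.7% of all genes) and 11 in 4OHT (4 up, 7 down, against 77.0%). SEMA4G fell by 1.60 in DMSO and 2.15 in 4OHT on the log2 scale, and SEMA3D by 1.3 and 0.70. In 4OHT both were near the floor, with means after siSF3B1 of 0.08 cRPKM for SEMA4G and 0.13 cRPKM for SEMA3D. The same limit holds for SEMA4D in 4OHT, at 0.40 cRPKM in siNT, 0.64 after siSF3B1 and 0.72 after siRBM39. It also holds for SEMA4G in 4OHT siRBM39, at 0.17 against 0.38 cRPKM in siNT. SEMA6A rose by 0.94 and 1.72. SEMA6C fell by 1.46 and SEMA4B by 0.62 in DMSO, and SEMA4D rose by 0.74 and SEMA4C by 0.69 in 4OHT. After siRBM39, 8 were called in each (4 up, 4 down in both, against 46.1% and 56.4% of all genes). SEMA4G again fell, by 0.79 in DMSO and 1.08 in 4OHT, and SEMA6C by 0.47 and 0.53, while PLXNB1 rose by 0.50 and 0.46. SEMA6D rose by 0.55 and SEMA4F fell by 0.43 in DMSO, and SEMA4D rose by 0.88 and SEMA6A by 0.77 in 4OHT. The effect of siSF3B1 differed between 4OHT and DMSO for 8 of the 14 (37.8% of all genes), by 1.17 for SEMA4D, 1.04 for SEMA6C, −0.82 for SEMA7A, 0.78 for SEMA6A and 0.60 for SEMA3D, and that of siRBM39 for PLXNA3 alone (14.1% of all genes; −0.24, adjusted p = 0.00414). The named changes had adjusted p-values of at most 0.0302 (edgeR). With siRBM39-08 alone PLXNB1 was at 0.18 in DMSO (adjusted p = 0.175), and with siRBM39-06 alone SEMA6C was at −0.12 (adjusted p = 0.277). Leaving out replicate 2 ended the calls on SEMA6D in DMSO siRBM39 (0.49, adjusted p = 0.0998) and on the SEMA7A interaction (−0.79, adjusted p = 0.0595), and the SEMA3D interaction was lost without replicate 1 (0.58, adjusted p = 0.0595), 2 (0.47, 0.218) or 3 (0.64, 0.0780).

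Genes downstream of the receptors were read from a list of 26, of which 23 were tested. RAS raised 10 and lowered 7, where 78.1% of all genes were called. With adjusted p-values of at most 7.73e-11, LIMK1 (0.87) and LIMK2 (0.55), kinases that phosphorylate cofilin, rose, and DPYSL3 (−1.50) and DPYSL2 (−0.96), collapsin response mediator proteins that carry the SEMA3A signal to microtubules, fell, all as log2 fold changes. siSF3B1 raised 9 and lowered 8 in DMSO and raised 10 and lowered 9 in 4OHT, and siRBM39 raised 4 and lowered 6 in DMSO and raised 6 and lowered 4 in 4OHT, beside the same shares of all genes as given for the family. Of 9 partner receptors that associate with plexins or neuropilins, 7 were tested. RAS raised 5, led by the VEGF receptor FLT1 (3.44) and the adhesion molecule L1CAM (1.89), and lowered ERBB2 (−2.29) and MET (−1.47), the receptor kinases that associate with class B plexins, with adjusted p-values of at most 5.55e-15. Partners rose and fell in 4 and 1 cases after siSF3B1 in DMSO, 2 and 4 in 4OHT, 0 and 2 after siRBM39 in DMSO, and 1 and 4 in 4OHT. Over all genes 72.7%, 77.0%, 46.1% and 56.4% were called in these comparisons, in the same order.

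The genes whose log2 CPM over the 48 libraries was most like that of PLXND1 were CPNE2 (Pearson r = 0.958), TMEM44 (0.956) and DHTKD1 (0.952). Those most like SEMA3F were AC044860.3 (0.911), IGFBP4 (0.876) and H2AFX (0.876). The 48 libraries share 1 cell line and 6 groups, so these values describe likeness over these groups only.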

How the data were processed

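RNA was measured by mRNA-capture RNA-seq in 48 libraries of IMR90 ER:RAS cells (6 groups of 8). The authors aligned and quantified reads with vast-tools version 2 against a VAST-DB library named hg19 and deposited, per gene, raw counts, cRPKM (an RPKM corrected for mappability) and a normalised CPM signal, and, per splicing event, inclusion in percent (PSI) with quality scores. The event coordinates in the deposited table are those of GRCh38; sequences and positions printed here were read from GRCh37 by matching exon and flanking lengths (for SEMA3F exons 9 and 10, the exon and 1 flanking intron). The submitters' processing notes name edgeR and limma.

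Gene counts were tested with edgeR 4.0.16 (quasi-likelihood, TMM, 6 group means, genes with at least 10000 counts, Benjamini-Hochberg adjusted p under 0.05). PSI was tested with limma 3.58.1 on logit(0.01 + 0.98 × PSI/100) in separate fits for exons, introns and alternative splice sites, keeping events whose coverage score was VLOW or better in all 48 libraries and whose PSI spanned at least 5 points, and introns with a junction balance p of at least 0.05. Calls needed an adjusted p under 0.05 and a mean difference of at least 5 points. CPM values are edgeR's, on TMM library sizes. The scripts were tested on simulated data. Depth per library was 31467221 to 52734636 counts. PSI values rest on 12 to 717 reads, limits for a count of 0 use 3 reads, and both cover counting error only.

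The members, gene lists and named events were chosen with earlier results of these data known. Named were the 8 genes, up to 5 other family members per comparison with the largest called change, the 2 largest changes per direction with RAS among signalling and partner genes, for PLXND1 and SEMA3F the exon and intron with the largest mean knockdown difference, and for each member up to 3 called events per comparison. SEMA3B was not analysed here. Alternatives were other normalisations (DESeq2 1.42.0 size factors), tests (DESeq2, limma-voom, limma on the deposited CPM signal), filters, single siRNAs, a replicate block and left-out libraries.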

Additional observations from a re-analysis of the deposited data

Results flagged for a closer look

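The highest or lowest library stood far from the other 7 of its group (Dixon's test) in 21 of 150 groups examined, 6 of 48 for transcript levels and 15 of 102 for PSI, where chance flags about 1 in 20.

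Replicate 4 of siRBM39-08 in 4OHT gave 4 of the 6 transcript levels. It held SEMA3F at 133 CPM (others 77.2 to 84.9), SEMA3A at 113 CPM (204 to 238), SEMA3C at 64.8 CPM (159 to 200) and NRP2 at 80.0 CPM (103 to 116). The same library had SEMA3A exon 14 at 90.3% (96.0 to 99.3) and PLXNB2 intron 6 at 2.04% (0 to 0.70). The remaining transcript levels were SEMA3C at 85.2 CPM (102 to 115) in DMSO siSF3B1-13 replicate 1 and PLXNA1 at 243 CPM (259 to 269) in 4OHT siNT1 replicate 4.

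Among exons, PLXND1 exon 32 was at 57.9% (38.4 to 44.7, on 74 reads) in 4OHT siSF3B1-13 replicate 1, the 84 nt NRP1 exon at 83.5% (88.2 to 92.4) in DMSO siSF3B1-13 replicate 2, SEMA3A exon 14 at 92.4% (96.2 to 99) in DMSO siSF3B1-13 replicate 3, and SEMA3A exon 5 at 95.6% (98.6 to 100) in 4OHT siRBM39-06 replicate 2.

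Among introns of low retention, PLXND1 intron 33 was at 9.01% (1.27 to 4.35) in 4OHT siRBM39-06 replicate 4. SEMA3F intron 16 was at 3.12% (others 0) in 4OHT siNT2 replicate 3 and at 5.66% (0 to 1.49) in 4OHT siRBM39-08 replicate 3. PLXNA1 intron 12 was at 1.66% (0) in DMSO siNT1 replicate 3, PLXNB2 intron 4 at 1.60% (0) in DMSO siRBM39-06 replicate 3, and PLXNB2 intron 6 at 0.73% (0) in DMSO siNT2 replicate 2 and 2.27% (0) in DMSO siRBM39-08 replicate 4. SEMA3A intron 16 was at 3.70% (0) in DMSO siNT1 replicate 2 and 3.85% (0 to 1.49) in DMSO siSF3B1-13 replicate 1.

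A knockdown effect differed between 4OHT and DMSO by its own test (edgeR) for SEMA3A (0.31), SEMA3C (1.03) and PLXNA1 (−0.38) after siSF3B1, and for SEMA3C (0.54), NRP1 (0.31) and PLXNA1 (−0.29) after siRBM39, all as differences of log2 fold changes.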

How the results depend on the processing

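Directions held for every called value under every alternative run, and the calls that were lost are given beside their values in the report or in these counts. Requiring 2-fold left 1 call, the SEMA3C interaction with siSF3B1, and 0 in the 6 other gene comparisons. Of the members called, siSF3B1 in DMSO (3) gave 1 with a filter of at least 1 count, 0 with siNT2 alone and 0 with siSF3B1-16 alone, siSF3B1 in 4OHT (4) gave 2 with siNT2 alone, and siRBM39 in DMSO (4) gave 2 with siNT2 alone. siRBM39 in 4OHT (4) gave 2 with only the groups compared, siNT1, siRBM39-06 or siRBM39-08 alone, or without replicate 4 of siRBM39-08, and 1 with siNT2 alone. The siRBM39 interaction (3) gave 1 with only the groups compared and with siNT1, siNT2 or siRBM39-08 alone. Leaving out 1 replicate number from every group gave 6 to 7 with RAS, 1 to 3 and 2 to 5 after siSF3B1 (DMSO, 4OHT), 3 to 5 and 2 to 4 after siRBM39, and 2 to 3 and 1 to 3 for the interactions. Fewer libraries entered the fits with single siRNAs and left-out replicates; otherwise the cause was not tested.

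Of the events called (8 and 9 after siSF3B1 in DMSO and 4OHT, 3 and 1 after siRBM39), 3, 4, 1 and 0 differed by at least 10 points. With no minimum difference there were 21, 23 and, for siRBM39 in 4OHT, 6, and without the balance filter 19, 20 and 2. The plain logit, which keeps only events between 1 and 99% in every library and so tests fewer, gave 1, 0, 1 and 0. siRBM39-08 alone gave 1 in DMSO and 0 in 4OHT, siRBM39-06 alone 3 in 4OHT, and siNT2 alone 2 in 4OHT, where leaving out a replicate gave 1 to 2. A posterior difference probability of at least 0.8 called 1 event for the siSF3B1 interaction.

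Signs turned for small values that were not called. For SEMA3A with RAS (0.01) siNT1 alone gave −0.037 and left-out replicates −0.0066 to 0.050. After siRBM39 in 4OHT SEMA3A (−0.04) came to 0.018 with siRBM39-06 alone, 0.044 without the library and −0.13 to 0.053 with left-out replicates, and its siRBM39 interaction (0.06) to −0.024 with siRBM39-08 alone and −0.069 to 0.22. For PLXNA1 after siSF3B1 in DMSO (0.01) only the groups compared gave −0.0019, siNT2 alone −0.066, siSF3B1-16 alone −0.036 and left-out replicates −0.0086 to 0.011. For NRP1 siSF3B1-16 alone gave −0.021 in DMSO (0.04) and −0.041 in 4OHT (0.02), where only the groups compared gave −0.012, siNT2 alone −0.021 and left-out replicates −0.017 to 0.019. For NRP2 siSF3B1-16 alone gave −0.14 in DMSO (0.13). After siRBM39 in DMSO NRP2 (−0.02) came to 0.025 with siNT1 alone, 0.13 with siRBM39-08 alone and −0.059 to 0.014 with left-out replicates, and its interaction (0.09) to −0.10 with siRBM39-08 alone. For PLXNB2 the interactions (−0.04 and −0.01) came to 0.036 with siSF3B1-16 alone and 0.029 with siRBM39-06 alone.

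The labels give groups the same replicate numbers, but the numbers were not taken to pair the libraries, since same-numbered libraries correlated at −0.152 to 0.337 in their deviations from the group means, negative values among them. Of 20, 10 correlated best with their own number, where 1 in 4 would without pairing, a hint from the data and not from the design. A fit with the replicate number as a block called 7, 3, 4, 4, 3, 3 and 3 members (RAS, siSF3B1 in DMSO and 4OHT, siRBM39 in DMSO and 4OHT, both interactions) and 0, 8, 9, 3, 1, 0 and 0 events. It ended 1 call, NRP1 after siRBM39 in 4OHT (−0.15, adjusted p = 0.0516), and changed no other. Depth limits the introns most, which rest on 12 to 263 reads.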
